A study of Mus musculus with 6 samples.

Results

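Interferon-stimulated genes are genes whose transcription rises when a cell senses interferon. The 33 members described here are Isg15, Isg20, Ifit1, Ifit2, Ifit3, Irf1, Irf7, Irf9, Stat2, Oasl2, Oas1a, Oas2, Oas3, Mx1, Mx2, Usp18, Rsad2, Ifi27, Ifi27l2a, Ifi44, Ifih1, Ddx58, Bst2, Rtp4, Zbp1, Gbp2, Gbp3, Xaf1, Parp14, Trim25, Cmpk2, Eif2ak2 and Adar. They were given as a list of symbols and looked up through the GENCODE M21 annotation among 55487 counted genes, and all 33 were found. The libraries are bulk RNA-seq of megakaryocyte-erythroid progenitors, the marrow cells that give rise to red cells and platelets. The donors were C57BL/6 mice of wild-type genotype, 8 weeks old, and the cells came from bone marrow by sorting. The control group has 3 libraries from control mice, whose feeding the labels do not describe, and the fasted group has 3 libraries from mice fasted for 6 h. The labels do not say whether a library is 1 mouse or a pool, so p-values measure only the spread between these libraries.

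Type I interferons bind the receptor formed by Ifnar1 and Ifnar2, which activates the kinases Jak1 and Tyk2. The signal passes to a complex that holds Stat2 and Irf9 and binds the interferon-stimulated response element (ISRE) in promoters. Interferon gamma acts through the receptor chains Ifngr1 and Ifngr2 and leads to binding at the gamma-activated sequence (GAS). Many of the induced proteins block viral replication, and many are also made at a low level in unstimulated cells. In bone marrow, interferon is known to act on stem and progenitor cells.

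Library totals ran from 22445970 to 30246110 counts in the control group and from 12797144 to 18225191 in the fasted group. Background was read from 1466 protein-coding odorant and vomeronasal receptor genes, which were taken as silent in blood cells. Whether each of them is silent here was not tested. They held 8.99 to 14.7 counts per kilobase of exon in control libraries and 14.2 to 16.01 in fasted ones. At that rate over all exons, background would make up 3.90% to 8.60% of the counts in control libraries and 11.5% to 14.6% in fasted libraries. Of 19 erythroid and megakaryocyte progenitor markers, 16 lay at or above 5 times background, Gata1 at 154 and Klf1 at 453 times, so markers of the labelled cell type were present. Granulocyte and monocyte markers were also present, 19 of 20 at or above 5 times background. Their summed level in CPM (counts scaled to a common library size) was 4185, 13518 and 20352 for control libraries 1, 2 and 3, against 5337, 3754 and 2319 for the fasted ones. Its part in the results below was not tested. In bulk RNA, fewer cells of a type and less RNA per cell cannot be told apart.

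RefSeq promoter windows on GRCm38.p6, from 250 bases before to 50 bases after a transcription start, were on hand for 24 of the 33 members. The ISRE core searched was GAAANNGAAA on both strands (TTTCNNTTTC on the other). It was present in 13 of these 24 members, against 3.99% of the 27025 genes with a window. The GAS core TTCNNNGAA, which reads the same on both strands and can share bases with an ISRE, was present in 7 of the 24, against 9.55% of genes. In 10 of the 13 members the ISRE match lay wholly before the start. A match is a run of letters and not evidence of binding. The windows of 5 members that recur below are printed 5′ to 3′ on the gene's strand, with the ISRE letters in capitals. Some hold overlapping matches and some a single match.

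Isg15 (chr4:156200856-156200915, minus strand): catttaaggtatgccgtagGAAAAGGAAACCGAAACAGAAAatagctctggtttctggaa
Bst2 (chr8:71537565-71537624, minus strand): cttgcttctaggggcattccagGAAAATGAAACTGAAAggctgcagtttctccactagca
Oas1a (chr5:120907526-120907585, minus strand): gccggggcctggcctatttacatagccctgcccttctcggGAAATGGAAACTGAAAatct
Rsad2 (chr12:26456538-26456597, minus strand): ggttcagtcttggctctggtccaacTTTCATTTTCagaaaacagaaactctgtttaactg
Stat2 (chr10:128270251-128270310, plus strand): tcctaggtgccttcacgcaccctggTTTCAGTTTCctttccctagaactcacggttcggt

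The Isg15 window holds 3 overlapping matches between 78 and 57 bases before the start. Bst2 and Oas1a each hold 2 overlapping matches, at 130 to 115 and 20 to 5 bases before the start. Rsad2 and Stat2 each hold 1 match, which reads on the other strand. Members without a window were Ifi27, Ifi27l2a, Mx1, Mx2, Oas2, Parp14, Rtp4, Usp18 and Zbp1.

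Most of the interferon-stimulated genes were expressed above background in these libraries. Over all 6 libraries 24 of 33 lay at or above 5 times background, 13 at or above 10 times and 3 at or above 50 times. Library by library, 29, 24 and 20 members lay at or above 5 times in control libraries 1, 2 and 3. In fasted libraries 1, 2 and 3 the numbers were 18, 19 and 19. The 3 highest, per kilobase of exon, were Ifi27 at 69.6 CPM per kilobase ± 11.4 (SD, n = 6), Bst2 at 66.9 ± 19.2 and Isg20 at 37.9 ± 10.1. Ifi27 encodes a small membrane protein, Bst2 encodes tetherin, which holds budding virus at the cell surface, and Isg20 encodes an RNA exonuclease. Ifi27 and Bst2 differed by less than their spread over libraries. Oas1a, Irf1 and Irf9 followed at 16.5, 16.3 and 15.9 CPM per kilobase, and they too differed by less than their spread. The member just above the threshold was Rsad2, at 5.26 times background, and the member just below it was Ifi44, at 4.16 times.

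**Figure D1:**
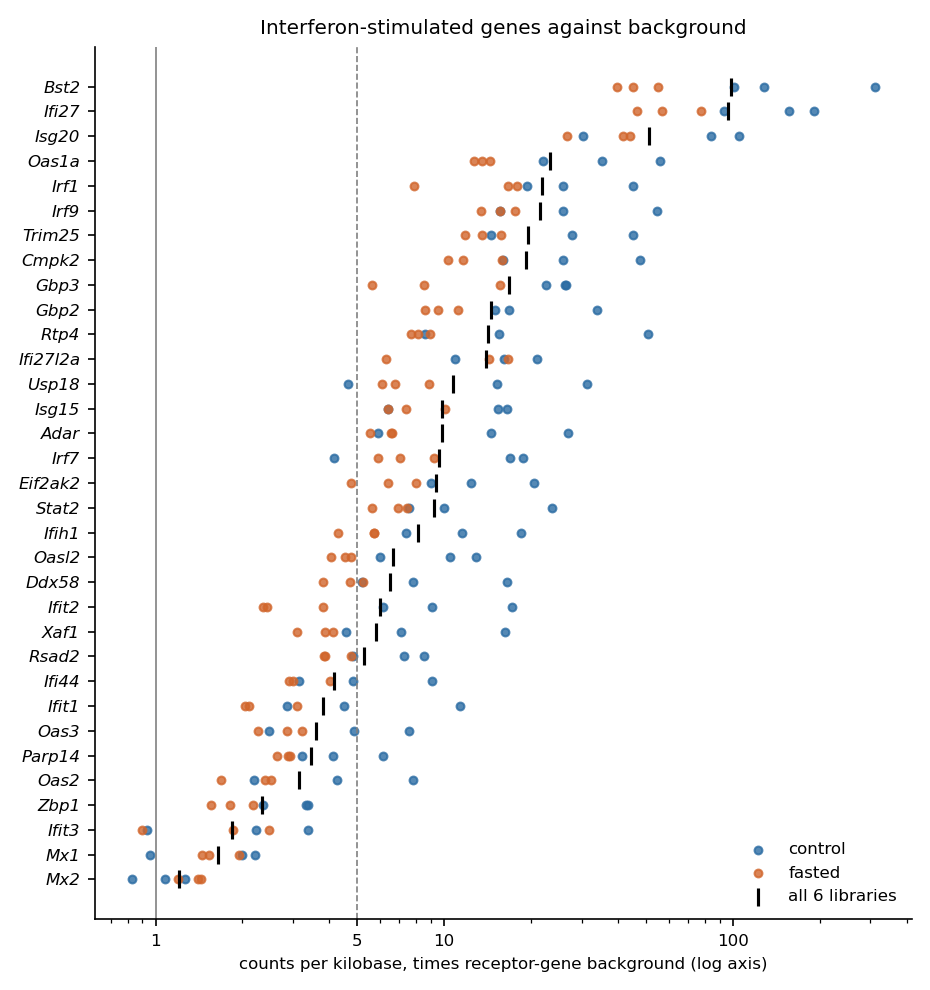
Counts per kilobase of each of the 33 members divided by the receptor-gene background of the same library (log axis), with control libraries in blue, fasted libraries in orange and the value over all 6 libraries as a black bar. The solid line marks 1 and the dashed line 5 times background; 24 members lie at or above 5, and Mx2, Mx1 and Ifit3 lie below 2. Fasted points sit to the left for most genes on this scale, whose divisor, the background, took a higher share of the counts in fasted libraries.

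The other 9 members, Ifi44, Ifit1, Oas3, Parp14, Oas2, Zbp1, Ifit3, Mx1 and Mx2, lay between 1.21 and 4.16 times background and entered no test of fasting. Mx1 and Mx2 encode dynamin-like antiviral GTPases, and C57BL/6 is among the strains known to carry a defective Mx1. Mx2 held 1.08, 1.26 and 0.829 times background in control libraries 1, 2 and 3, against 1.44, 1.40 and 1.20 times in fasted libraries. In CPM it stood at 1.25, 2.54 and 2.22 in the control group and at 6.43, 5.17 and 4.82 in the fasted group, and the background itself went the same way, from 0.320, 0.556 and 0.743 CPM per kilobase in control to 1.24, 1.02 and 1.116 in fasted libraries. The CPM of 5 of these 9 members (Ifi44, Mx1, Mx2, Oas3 and Parp14) was higher in every fasted than in every control library. The same held for 51.5% of the 25867 filtered genes below 5 times background, so the members' share is near that of other genes at this level. Ifit1, whose protein binds viral RNA caps, stood at 11.3 times background in control library 1 and at 2.05 to 4.50 times in the other 5 libraries.

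Fasting for 6 h was compared with control over the 10641 genes that passed a filter on low counts and lay at or above 5 times background, by edgeR's quasi-likelihood test with TMM scaling and Benjamini-Hochberg adjustment. None of the 24 tested members passed at an adjusted p under 0.05, and none of the 10641 genes did (0.0%). At an unadjusted p under 0.05 there were 2 of 24 members, Bst2 and Ifit2, against 19.8% of all genes tested. Ifit2 passed the threshold of 5 times background only through the control group, where it is higher, so it had to differ on that scale and its value is a description. In all, 4 tested members, Oasl2, Ifit2, Rsad2 and Xaf1, lay below 5 times background in every fasted library, and 0 did in every control library. DESeq2 on the same genes passed 1 member, Bst2, against 4.73% of genes. The members split into 14 with a log2 fold change above 0 and 10 below, with a median of 0.05, beside a median of 0.02 over all genes tested. Their log2 fold changes ran from -0.66 for Bst2 to 0.74 for Ifi27l2a. For 17 of the 24 the 95% interval lay wholly between -1 and 1, and for 22 of the 24 it spanned 0. A change of 2-fold or more lies outside those 17 intervals under this scaling only. In the fit of all filtered genes, described below, intervals of some of the 17 reached below -1. Among them were Oas1a, at -1.27 to -0.27, and Ifi27, at -1.11 to -0.12. Exons of Irf1, Irf7, Irf9, Usp18, Adar, Gbp2, Eif2ak2, Rtp4 and Parp14 overlap other annotated genes, and how shared reads were counted is not given in the sources used here, so their values are less certain.

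**Figure D2:**
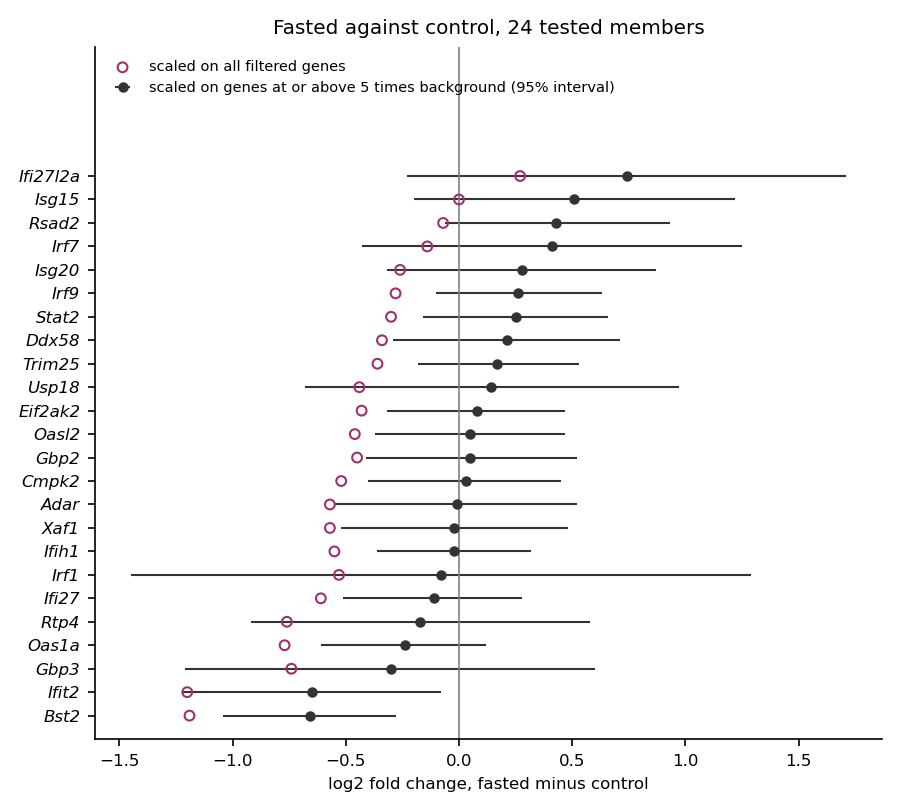
The log2 fold change (fasted minus control) of the 24 tested members with its 95% interval (filled points and lines), ordered by value, and the same quantity when scaling and testing used all 36508 filtered genes (open circles). Only the intervals of Bst2 and Ifit2 leave out 0, and the open circles lie to the left of the filled points in all 24.

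The direction of small differences depended on which genes set the scale. When all 36508 genes that passed the low-count filter were scaled and tested together, log2 fold changes had a median of 0.32 over all of them and -0.50 over the 10641 genes of the main comparison. The median of the 24 members in that fit was -0.46. It placed 22 of them below 0, and it passed 2 members, Bst2 and Ifit2, both lower. Among all genes 3.82% passed as lower, and among the 10641 genes 12.9% did. Of the 14 members with a positive value in the main comparison, 12 were negative in that fit, and the exceptions were Ifi27l2a, at 0.27, and Isg15, at 0.00. Ifnar2, described below, went from 0.20 to -0.30. With no filter on low counts 5.38% of genes passed.

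Bst2 had the lowest p of the members and stood lower in the fasted group. Bst2 (ENSMUSG00000046718.8, GRCm38 chromosome 8, 71534255 to 71537456) stood at 89.9, 64.3 and 67.6 CPM in control libraries 1, 2 and 3, against 44.3, 50.8 and 45.6 CPM in the fasted ones. Every fasted library lay below every control library, with control library 1 the highest. Fasted minus control was -0.66 on the log2 scale (SE 0.17, 95% interval -1.04 to -0.28), a level 0.635 times that of control, with an edgeR adjusted p of 0.142. The DESeq2 adjusted p was 0.0238, and in the fit of all filtered genes the value was -1.19 (edgeR adjusted p 0.0277). Bst2 is also a marker of plasmacytoid dendritic cells. Of 11 markers of those cells, 6 lay at or above 5 times background, Bst2 itself among them. The sum of all 11 ran from 447 to 561 CPM in control libraries and from 416 to 662 CPM in fasted libraries. Tcf4 and Irf8 held much of it, at 131 and 147 CPM in control library 1 and 167 and 287 CPM in fasted library 1. Irf8 is also on the granulocyte and monocyte list. The defining markers Siglech and Ccr9 lay at 2.73 and 2.23 times background. The CPM of every marker of this list below 5 times background was higher in all fasted than in all control libraries. The same held for 51.5% of the filtered genes below 5 times background. Control library 1, the highest for Bst2, had the lowest granulocyte and monocyte sum of its group.

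Of the IFIT family, which binds foreign RNA and slows its translation, Ifit2 alone was tested. Ifit2 (ENSMUSG00000045932.12, chromosome 19, 34550694 to 34576419) stood at 21.6, 19.9 and 17.9 CPM in control, against 11.8, 9.44 and 16.7 CPM in fasted libraries. The groups did not overlap, and fasted library 3 came close to control library 3. Its counts were 6.14 to 17.2 times background in control libraries and 2.35 to 3.80 times in fasted ones. Fasted minus control was -0.65 in log2 units, and with the background subtracted it was -1.02. Since the control group alone carried Ifit2 past the threshold, these values are a description, and its place in the counts of tested members is no support for a change.

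The groups also did not overlap for Oas1a, again lower, and for Rsad2, which was higher in fasted libraries. In all, 3 of 24 tested members were lower without overlap, against 12.9% of genes tested, and 1 was higher without overlap, against 14.4%. The 3 include Ifit2, which passed the threshold of 5 times background only through the control group. Oas1a (ENSMUSG00000052776.10, chromosome 5, 120896256 to 120907521) encodes a 2-5A synthetase, which makes the second messenger that switches on RNase L. It stood at 33.7, 36.9 and 30.9 CPM in control, against 29.6, 27.7 and 28.4 CPM in fasted libraries, a narrow gap. Fasted minus control was -0.24 in log2 units (SE 0.16, edgeR adjusted p 0.421). Oas1a has close relatives in a cluster, and how reads shared between them were counted is not given in the sources used here. Its relative Oasl2 had a log2 difference of 0.05 (95% interval -0.37 to 0.47), while Oas2 and Oas3 were below 5 times background.

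Rsad2 (ENSMUSG00000020641.16, chromosome 12, 26442746 to 26456452) encodes viperin, an enzyme that makes a chain-terminating nucleotide. It stood at 11.8, 17.5 and 15.6 CPM in control, against 20.8, 21.04 and 18.6 CPM in fasted libraries. Fasted minus control was 0.43 in log2 units (SE 0.22, 95% interval -0.06 to 0.93, edgeR adjusted p 0.306). Its neighbour Cmpk2, which encodes a nucleotide kinase that works with viperin, was at 57.6 CPM ± 7.42 in control and 58.6 ± 13.2 in fasted libraries (SD, n = 3 each), with a log2 difference of 0.03. Isg20 (ENSMUSG00000039236.18, chromosome 7, 78913424 to 78920396) stood at 62.5, 87.2 and 41.9 CPM in control, against 61.5, 79.0 and 91.3 CPM in fasted libraries. These groups overlapped, and the log2 difference was 0.28 (SE 0.26, edgeR adjusted p 0.576).

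**Figure D3:**
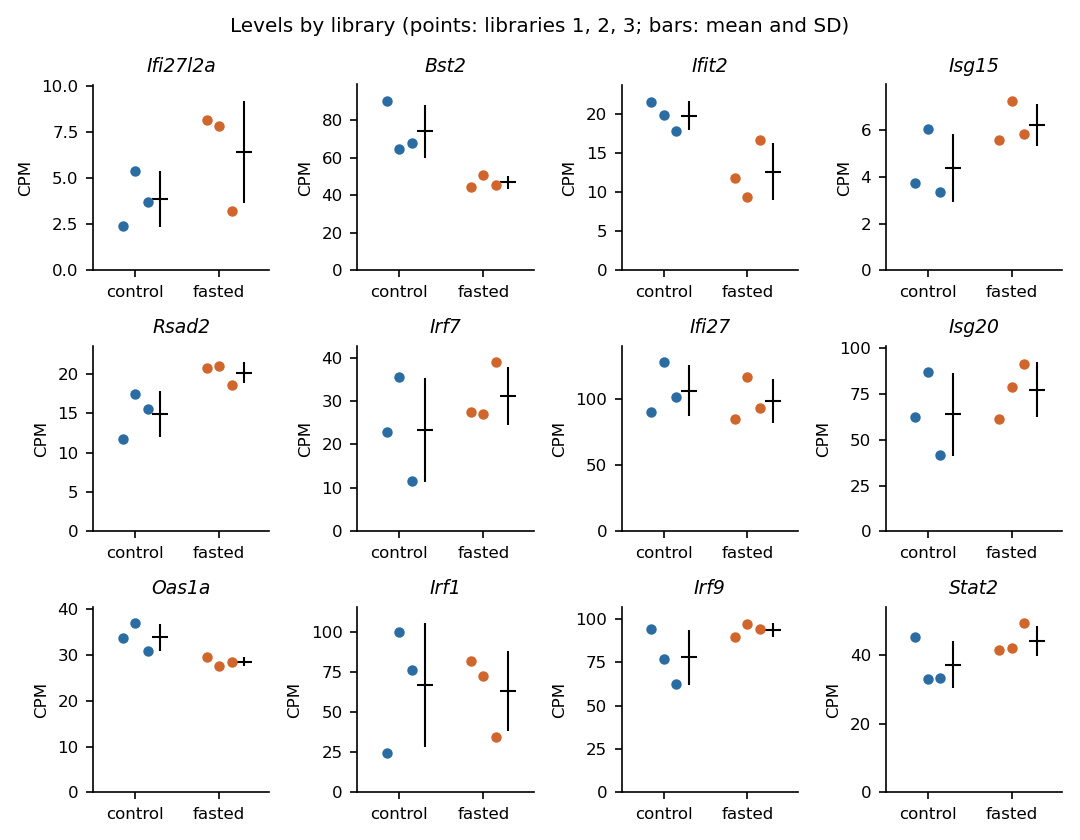
CPM of 12 members in each library, control in blue and fasted in orange, with group mean and SD in black; every vertical axis starts at 0. Bst2, Ifit2 and Oas1a are lower and Rsad2 is higher in all 3 fasted libraries, and the other 8 overlap between the groups.

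Values of the 4 members that are transcription factors of the pathway, Stat2, Irf9, Irf7 and Irf1, overlapped between the groups. Stat2 (ENSMUSG00000040033.16, chromosome 10, 128270559 to 128292849) stood at 44.99, 32.9 and 33.3 CPM in control, against 41.3, 41.8 and 49.1 CPM in fasted libraries, so control library 1 lay among the fasted ones. Its fitted log2 difference was 0.25 (95% interval -0.16 to 0.66, edgeR adjusted p 0.459). Its partner Irf9 (ENSMUSG00000002325.15, chromosome 14, 55603571 to 55610030) stood at 94.3, 77.0 and 62.2 CPM in control, against 89.5, 97.2 and 94.0 CPM in fasted libraries. Fasted minus control was 0.26 in log2 units (95% interval -0.10 to 0.63, edgeR adjusted p 0.389), and its exons overlap those of Rnf31 on the same strand. Irf7 (ENSMUSG00000025498.15, chromosome 7, 141262706 to 141266481), the factor that amplifies interferon production, varied 3-fold within the control group alone. It stood at 22.8, 35.6 and 11.6 CPM in control, against 27.5, 27.0 and 38.9 CPM after fasting. Its fitted log2 difference was 0.41 (95% interval -0.43 to 1.25, edgeR adjusted p 0.552), and its exons overlap Phrf1 on the other strand.

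Irf1 (ENSMUSG00000018899.16, chromosome 11, 53770014 to 53778374), a factor induced by interferon gamma, had 1 low library in each group. It stood at 24.6, 99.7 and 76.2 CPM in control, against 81.7, 72.6 and 34.8 CPM in fasted libraries. The log2 fold change of -0.08 had a 95% interval of -1.45 to 1.29, the widest of the 24, and leaving out 1 library at a time moved it between -0.48 and 0.29.

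Isg15 (ENSMUSG00000035692.7, chromosome 4, 156199424 to 156200818) encodes a ubiquitin-like protein that is joined to other proteins, Trim25 is a ligase that can attach it, and Usp18 removes it. Isg15 stood at 3.71, 6.01 and 3.34 CPM in control, against 5.56, 7.21 and 5.80 CPM in fasted libraries, so control library 2 lay within the fasted range. Its fitted log2 difference was 0.51 (SE 0.31, 95% interval -0.20 to 1.22, edgeR adjusted p 0.388). Usp18 ran from 9.65 CPM in control library 3 to 27.95 CPM in control library 1, a range that held all 3 fasted values, and had a log2 difference of 0.14 (95% interval -0.68 to 0.97). Trim25 had 0.17 (95% interval -0.18 to 0.53).

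Values of the cytoplasmic RNA sensors overlapped between the groups. Ifih1, which encodes the sensor MDA5, was at 48.5 CPM ± 3.72 in control and 47.7 ± 4.52 in fasted libraries (SD, n = 3 each), with a log2 difference of -0.02 (95% interval -0.36 to 0.32). Eif2ak2, the kinase PKR that halts translation on double-stranded RNA, was at 34.3 CPM ± 0.806 and 36.1 ± 5.89 (SD, n = 3 each), with a log2 difference of 0.08. Ddx58, which encodes the sensor RIG-I, had 0.21 (95% interval -0.29 to 0.71). Adar, which edits double-stranded RNA and so keeps it from these sensors, had -0.01, with 35.5 CPM in control library 3 against 65.8 and 70.2 CPM in the other control libraries. Zbp1, a sensor of Z-form nucleic acid, was at 2.35 times background.

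Ifi27 (ENSMUSG00000064215.13, chromosome 12, 103434211 to 103440239) stood at 89.7, 127 and 101 CPM in control, against 84.4, 116 and 93.1 CPM in fasted libraries. The ranges overlapped, with a log2 fold change of -0.11 (95% interval -0.51 to 0.28, edgeR adjusted p 0.736). Ifi27l2a (ENSMUSG00000079017.3, chromosome 12, 103442167 to 103443680), a related gene beside it, stood at 2.39, 5.42 and 3.74 CPM in control, against 8.17, 7.84 and 3.24 CPM in fasted libraries. It had the largest positive value, 0.74, but fasted library 3 lay below 2 control libraries, and the 95% interval was -0.23 to 1.71 (edgeR adjusted p 0.359). The GTPase genes Gbp2 and Gbp3 had log2 fold changes of 0.05 and -0.30, Xaf1, the gene of a pro-apoptotic protein, had -0.02, and Rtp4 had -0.17, with 34.7 CPM in control library 1 against 13.5 to 21.5 CPM in the other 5 libraries.

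Control library 3 had the lowest CPM for 10 of the 24 tested members, among them Irf7, Usp18, Adar, Isg20 and Irf9. The median of the members' centred log2 CPM was 0.02, 0.14 and -0.25 for control libraries 1, 2 and 3, against 0.04, 0.07 and 0.09 for the fasted ones, while the same median over all genes tested lay between -0.01 and 0.03 in every library. Control library 3 also had the highest granulocyte and monocyte sum and the lowest erythroid and megakaryocyte sum, 5448 CPM against 7018 to 9890 CPM elsewhere, and the part of this in the members' levels was not tested. Without control library 3 the members' median log2 fold change was 0.01, and without control library 1 it was 0.16.

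**Figure D4:**
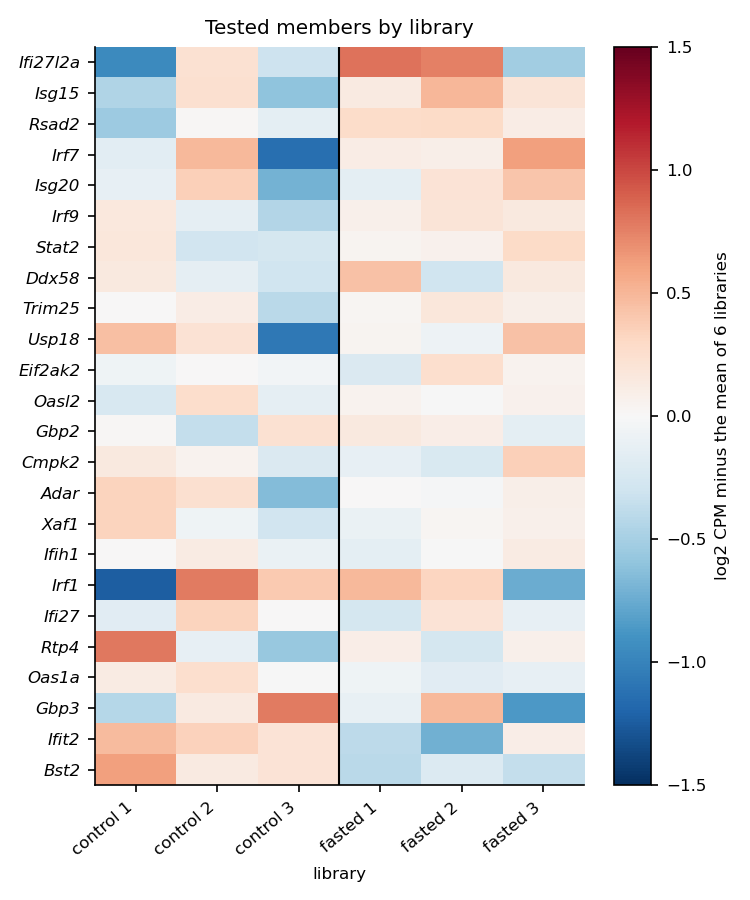
Log2 CPM of the 24 tested members minus each gene's mean over the 6 libraries, with genes in the order of their fold change and a black line between the control and fasted libraries; red is above and blue below the gene's mean. Control library 3 is blue for Irf7, Usp18, Adar and Isg20, and Bst2 and Ifit2 at the bottom are red in control libraries.

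Tested members with and without an ISRE core in the window covered similar ranges of log2 fold change. The 10 tested members with an ISRE core in the window had log2 fold changes from -0.66 to 0.51, with a median of 0.06, and the 10 tested members with a window but no match had values from -0.65 to 0.41, with a median of 0.04. No test was made of this.

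No interferon gene reached 5 times background over the 6 libraries together. Of 19 interferon genes in a list of ligands, the highest was Ifnl3, at 3.11 times background with 10 to 36 counts per library, followed per kilobase by Ifnb1, at 2.13 times with 12 to 37 counts. In control library 1 alone Ifnb1 stood at 5.49 times. Ifng was at 0.292 times. The receptors were present. Ifngr1, a chain of the interferon gamma receptor, was the most abundant gene of the receptor and signalling list at 133 CPM per kilobase, with a log2 fold change of -0.22 (95% interval -0.56 to 0.13). Ifnar1 and Ifnar2 had -0.11 (95% interval -0.50 to 0.28) and 0.20 (95% interval -0.18 to 0.58).

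Of the 16 tested genes of that list none passed (edgeR), 4 had an unadjusted p under 0.05, a share of 25.0% against 19.8% of all genes tested, and DESeq2 passed none, against 4.73% of genes. Jak2, a kinase of that list named here after its values were seen, was higher in every fasted library. It stood at 26.2, 31.5 and 29.5 CPM in control, against 42.8, 46.9 and 38.6 CPM in fasted libraries. Its log2 value was 0.56 (95% interval 0.19 to 0.93, edgeR adjusted p 0.154), and 0.06 in the fit of all filtered genes. Socs1, which shuts off Jak kinases, stood at 10.2, 9.15 and 11.2 CPM in control, against 15.99, 13.65 and 20.95 CPM in fasted libraries, without overlap. Its fitted log2 difference was 0.73 (SE 0.24, edgeR adjusted p 0.170). Socs3, a related inhibitor, had 0.69 (SE 0.34, edgeR adjusted p 0.296). Ptpn6, a phosphatase of blood cells and the second most abundant of the list per kilobase, had -0.34 (SE 0.14, edgeR adjusted p 0.223). Among 20 tested genes of nucleic acid sensing, 1 had an unadjusted p under 0.05, a share of 5.0% against 19.8% of all genes tested. This was Irf5, a factor that acts below Toll-like receptors, at 12.8, 21.1 and 15.8 CPM in control, against 37.1, 35.5 and 21.5 CPM after fasting. Its fitted log2 difference was 0.92 (SE 0.27), its adjusted p was 0.154 in edgeR, and its DESeq2 adjusted p was 0.0384, the only gene of the list that DESeq2 passed, against 4.73% of all genes. Its exons overlap Tnpo3 on the other strand. Tmem173, the gene of the DNA sensing adaptor STING, had -0.37 (SE 0.26), and the RNase H2 subunit genes Rnaseh2a and Rnaseh2c, the most abundant of the list per kilobase, had -0.04 and -0.02.

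Of 70 other interferon-stimulated genes, 45 were tested and none passed in edgeR, while 12 had an unadjusted p under 0.05, 2 higher and 10 lower, a share of 26.7% against 19.8% of all genes tested. Their median log2 fold change was -0.15, against 0.05 over the 24 tested members and 0.02 over all genes tested. Fasted values lay below all control values for 14 of the 45, against 12.9% of genes tested, and above them for 2, against 14.4%. DESeq2 passed 3 of the 45, against 4.73% of all genes tested. These were Tor3a, Ifi47 and Psmb10, all lower. Tor3a, which encodes an ATPase of the endoplasmic reticulum, stood at 64.9, 55.4 and 71.1 CPM in control, against 31.9, 23.0 and 23.1 CPM in fasted libraries, with no overlap. Its fitted log2 difference was -1.30 (SE 0.19, 95% interval -1.72 to -0.87), with an edgeR adjusted p of 0.131 and a DESeq2 adjusted p of 1.04e-06. Cxcl10, a chemokine gene, had the largest positive value, 1.24, with a 95% interval of -1.24 to 3.72. B2m, the light chain of MHC class I and the most abundant of the list per kilobase, had -0.24 (SE 0.15), and Lgals9, the galectin 9 gene, had 0.07 (SE 0.16).

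The other genes of that list with an unadjusted p under 0.05 are named here after their values were seen. The lower ones included Psmb8, Psmb9 and Psmb10, subunits of the immunoproteasome, at log2 fold changes of -0.71, -0.43 and -0.55, and Tapbp, which loads peptides onto MHC class I, at -0.43. The GTPase genes Ifi47, Igtp and Gbp7 had -1.05, -0.55 and -0.46. Ifitm3, which hinders viral entry, had -0.54, and Ly6e had -0.36. The higher ones were Ifi30, a lysosomal thiol reductase gene, at 0.63, and Rnf213 at 0.32. Of these, Ifi47, Igtp, Gbp7, Tapbp, Psmb8, Psmb9, Ifi30 and Rnf213 share exonic sequence with overlapping genes, Ifi47 with Olfr56 and Igtp with Irgm2 on the same strand, and their counts are less certain. Control and fasted values did not overlap for any of these 11 genes, which were picked by p, so this is not separate evidence. Over all genes tested, 12.9% were lower and 14.4% higher without overlap. The edgeR adjusted p of the 11 genes lay between 0.131 and 0.232. The granulocyte and monocyte sum was highest in control libraries 2 and 3, at 13518 and 20352 CPM, and its part in these values was not tested. In the fit of all filtered genes 14 of the 70 passed, all lower, against 3.82% of genes, and 13 of the 45 did, against 12.9% of the 10641 genes.

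**Figure D5:**
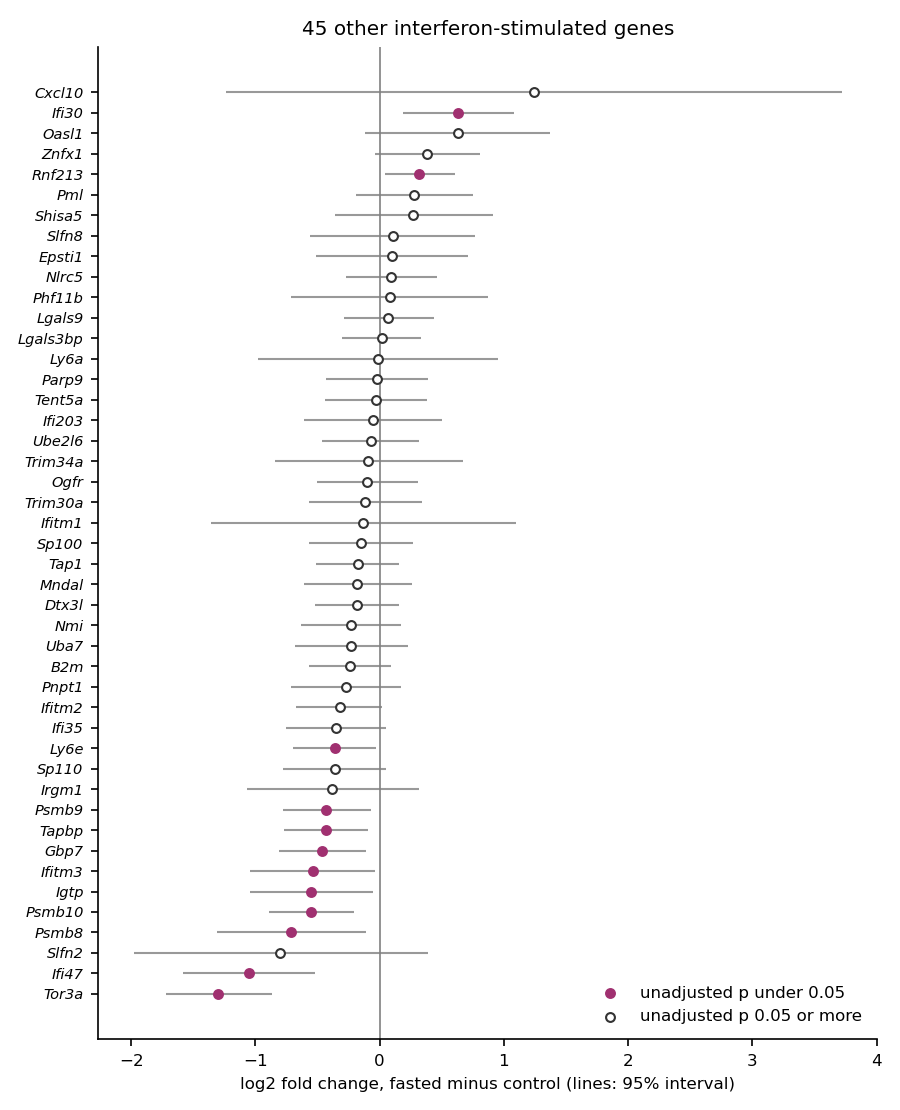
The log2 fold change (fasted minus control) with its 95% interval for the 45 tested genes of the other interferon-stimulated list, filled where the unadjusted p was under 0.05. The filled points hold 10 genes below 0, from Tor3a at -1.30 to Ly6e at -0.36, and 2 above 0.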

How the data were processed

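The libraries were poly(A)-selected, per the labels' protocols. The authors deposited raw counts per gene with the exonic length of each gene. The submitters' processing notes name HISAT2 2.2.1, featureCounts 2.0.1 and GRCm38. Annotation, strand setting and read filters are not given in the sources used here. All 54435 identifiers that matched GENCODE M21 with their version had its merged exon length.

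A gene's multiple of background was its mean count over 6 libraries divided by the mean receptor-gene rate times its length. Genes were tested if they passed filterByExpr (36508) and lay at or above 5 times background (10641). edgeR 4.0.16 in R 4.3.3 used TMM factors of these genes, robust quasi-likelihood fits and a single group term. CPM is scaled by the same factors for every gene. The SE is the size of the log2 fold change divided by the square root of F. DESeq2 1.42.0 was an alternative. The script was tested on simulated data.

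The members, gene lists and tests were chosen with earlier results of these data known. Values in every library are given for the 6 members with the largest log2 fold change, the 6 highest per kilobase, those called in either edgeR fit, and Stat2, Irf9, Irf7 and Isg15. Other lists name genes by level and fold change. A gene of the receptor and signalling list is not reported here.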

Additional observations from a re-analysis of the deposited data

How the results depend on the processing

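Leaving out 1 library at a time passed 0 members in each of the 6 fits, moved the members' median log2 fold change between 0.01 and 0.16, and left 21 to 24 members at or above 5 times background. It passed 0 genes of the receptor and signalling, nucleic acid sensing and other interferon-stimulated lists. A threshold of 3 times background kept 29 members, with a median of -0.05, beside 0.06 over all genes tested at that threshold. It passed 1 of 53 other interferon-stimulated genes. The share that passed over all genes was not counted there, so this is no result about the list. A threshold of 10 times kept 13 members. With all 36508 filtered genes scaled and tested, 2 members passed. The median was -0.38 over all 33 members and -0.46 over the 24 of the main comparison. In that fit 2 receptor and signalling genes, 1 nucleic acid sensing gene and 14 other interferon-stimulated genes passed. With no filter on low counts, 5.38% of 52922 genes passed and the median over all of them was 0.35. There 3 members passed, and the median over all 33 members was -0.41. The lists passed 3, 4 and 17 genes, with 1 interferon ligand that held 0 to 10 counts per library. DESeq2 passed 1 member, 1 nucleic acid sensing gene and 3 other interferon-stimulated genes. The scaling on all filtered genes, and that with no filter, turned the log2 fold change of Rsad2 to -0.07 and -0.10, of Irf7 to -0.14 and -0.18, of Isg20 to -0.26 and -0.30, of Irf9 to -0.28 and -0.32 and of Stat2 to -0.30 and -0.34. With no filter Isg15 was at -0.03. These fits take their scale from background-level genes, whose CPM was higher in fasted libraries. With 1 library left out, Irf1 ranged from -0.48 to 0.29, Irf7 from 0.07 to 0.81, Isg20 from 0.02 to 0.53, Irf9 from 0.10 to 0.43, Stat2 from 0.13 to 0.41, Rsad2 from 0.28 to 0.52, Isg15 from 0.33 to 0.78, Ifi27l2a from 0.48 to 1.06 and Ifi27 from -0.29 to 0.00. Library totals, RLE factors, background subtraction, dispersion without robust settings and a replicate block passed 0 members. With the replicate block Irf1 was at 0.01 and the members' median was 0.07. Deviations of equally numbered libraries correlated at -0.155, 0.134 and -0.274, so the numbers were not read as pairs.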

Other observations

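Irf1, Cxcl10 and Socs3, which answer to inflammatory signals as well as to interferon, shared their lowest library. Control library 1 held 24.6 CPM of Irf1, 3.24 CPM of Cxcl10 and 7.31 CPM of Socs3. The other 5 libraries held 34.8 to 99.7, 38.9 to 119 and 18.3 to 26.6 CPM. Of 20 granulocyte and monocyte markers, 5 were also lowest in control library 1, at 72.9 CPM for S100a8 against 227 to 802 CPM elsewhere, 47.7 for S100a9 against 137 to 305, 46.9 for Ltf against 107 to 261, 17.7 for Camp against 89.9 to 231 and 60.1 for Ngp against 191 to 478. All other markers of the 20 were lowest in a fasted library. The sum of the 20 was 4185 CPM in control library 1, above the 3754 and 2319 CPM of fasted libraries 2 and 3. The part of these cells in the values of Irf1, Cxcl10 and Socs3 was not tested. These genes were singled out after their values were seen. Bst2 and Rtp4 had their highest value in control library 1, at 89.9 and 34.7 CPM.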
